A study of Mus musculus with 12 samples.

Results

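The genes described here are 9 mouse genes for interferon-inducible GTPases: Gvin1 and its copy Gm4070, the guanylate-binding proteins Gbp2, Gbp3 and Gbp7, and the immunity-related GTPases Iigp1, Irgm1, Igtp and Ifi47. They were picked by symbol from the 54227 gene symbols of the table, and Gvin1 and Gm4070 were added together because their transcripts are almost the same, which left 8 rows. The set was chosen because Gvin1 falls between the sub and low populations of the series. Values of that step are therefore given as a description, without a test, and so is every value of the summed pair in a comparison that holds sub or low. All 8 rows passed the minimum mean of 10 that admitted 16127 rows to the tests.

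Livers of C57Bl/6 mice that carry the Sox9EGFP transgene, a green fluorescent reporter of the Sox9 gene, were digested into single cells after a fast of 16 h. Cells were sorted on the reporter into 4 populations, named here neg, sub, low and high in order of rising fluorescence, the sub gate being dimmer than the low one. For each library 12000 cells were taken and their RNA converted with a random-primed kit for total RNA, and there were 3 libraries per population, 12 in all. All 4 populations share the strain, the transgene and the fast. Only reporter-bearing mice were used, so the neg cells come from the same kind of mouse as the others. Age and sex were not given in the labels. The sample descriptions carry a code that the 4 libraries of each number share, but do not say what it stands for, so the libraries were not treated as paired and p-values measure only the spread between these libraries.

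Interferon-inducible GTPases are switched on when interferon binds its receptor, Janus kinases phosphorylate STAT proteins, and STAT and IRF factors bind the GTPase genes. Guanylate-binding proteins and immunity-related GTPases gather on the vacuoles of intracellular parasites and bacteria and help to break them open, and the very large inducible GTPases, to which Gvin1 belongs, are the least understood family. In the liver many cell types respond to interferon, among them the endothelial cells that line the sinusoids, the stellate cells beside them, hepatocytes and resident macrophages.

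Gvin1 and Gm4070 lie on the minus strand of chromosome 7, at chr7:106156556-106215326 and chr7:105895139-105953967 of GRCm38, and together span 320.2 kb. Their longest annotated transcripts are 9005 and 9007 bases long. Over 9005 aligned bases they differ at 3 positions, an identity of 99.967%, and all 3 positions lie in the coding sequence, bases 301 to 7581 of the Gvin1 transcript. The substitutions, counted from 1 at the 5′ end of the Gvin1 transcript with the Gvin1 base first, are G2105T, G5204A and C7375T. Within the aligned bases a read tells the genes apart where it covers such a base. The stretches around the first and second of these are shown because they hold differences by which reads of these transcripts can be told apart. They are written 5′ to 3′ in transcript sense from the GENCODE M21 transcripts, with the differing base in capitals:
Gvin1, bases 2075 to 2135: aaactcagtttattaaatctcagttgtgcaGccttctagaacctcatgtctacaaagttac
Gm4070, bases 2077 to 2137: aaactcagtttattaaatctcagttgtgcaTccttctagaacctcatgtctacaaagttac
Gvin1, bases 5174 to 5234: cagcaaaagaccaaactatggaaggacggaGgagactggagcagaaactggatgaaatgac
Gm4070, bases 5176 to 5236: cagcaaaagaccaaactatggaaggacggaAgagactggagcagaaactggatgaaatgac

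The 3 guanylate-binding protein genes lie within 107.7 kb of the plus strand of chromosome 3: Gbp7 at chr3:142530342-142550149, Gbp3 at chr3:142560026-142573209 and Gbp2 at chr3:142620602-142638008. On chromosome 11, Irgm1 lies at chr11:48861968-48871683 on the minus strand and Ifi47 at chr11:49076587-49096974 on the plus strand, within 235.0 kb of each other. Igtp lies apart from them at chr11:58199556-58207591 on the plus strand, and Iigp1 is on another chromosome. All 9 are annotated as protein-coding.

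RefSeq promoters of GRCm38.p6 were at hand for 6 of the 9 genes: Gbp2, Gbp3, Gbp7, Irgm1, Igtp and Ifi47. The 250 bases before each RefSeq start were searched on both strands for GAAA, 2 bases of any kind and GAAA again, the core of the interferon-stimulated response element (ISRE) that IRF and STAT complexes bind. These letters occur in 978 of 32851 promoters, or 2.98%, and in a promoter of Gbp2, Gbp3, Gbp7, Irgm1 and Igtp, but not in that of Ifi47 nor in the second promoter listed for Gbp3. The windows with a match are shown because their letters match the core of that element. They are written 5′ to 3′ on the gene's own strand with the matched letters in capitals, so that a match on the opposite strand reads TTTC, 2 bases and TTTC:
Gbp2, chr3:142620594-142620623, plus strand: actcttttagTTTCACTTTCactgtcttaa
Gbp3, chr3:142559992-142560021, plus strand: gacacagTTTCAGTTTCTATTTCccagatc
Gbp7, chr3:142530273-142530302, plus strand: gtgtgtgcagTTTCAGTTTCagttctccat
Irgm1, chr11:48871428-48871457, minus strand: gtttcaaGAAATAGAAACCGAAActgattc
Igtp, chr11:58199512-58199541, plus strand: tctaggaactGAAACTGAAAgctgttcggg

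These starts are RefSeq's and differ from the GENCODE gene ends given above: by GENCODE all 30 bases of the Irgm1 window and 22 of the 30 of the Gbp2 window lie in annotated exons of those genes, and the other 3 windows lie before the gene. The matches begin at position -59 from the RefSeq start in Gbp2, -53 in Gbp7 and -34 in Igtp. In Gbp3 a pair of overlapping matches begins at -45 and -39, and in Irgm1 at -30 and -24. The letters TTCNNNGAA, the core of the gamma-activated site, occur in 2306 of the 32851 promoters (7.02%), reading alike on both strands. Among the promoters of the 6 genes they occur in that of Gbp7, beginning at -106 and -87, and in that of Igtp, beginning at -45. A match is a description of the letters and not a measured binding site.

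Expression is given as the normalised count deposited by the authors, reads scaled by a single factor in each library. In every library 100% of non-zero values were multiples of the smallest one by a whole number, within a tolerance of 0.01, and the recovered depth ranged from 8775387 to 15535588 reads. A count of 3 reads, the most that a count of 0 allows, equals 2.07 to 3.67 normalised counts. This limit and all read-based intervals cover counting error only. Sox9, the gene behind the reporter, read 0.691, 0 and 0 in the neg libraries and 3707 to 17140 in the other 9. Differences were tested with limma on log2(normalised count + 1), with Benjamini-Hochberg adjustment over the 16127 rows, and a gene passed at an adjusted p under 0.05. Log2 fold changes are on that scale, and where libraries read 0 their size depends on the pseudocount. It can lie above or below the ratio of means. In high against neg the fit gave 398.9-fold for the sum of Gvin1 and Gm4070, beside a ratio of means of 101.4. For Igtp it gave 525.1-fold, beside a ratio of 1510.

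Gvin1, a very large inducible GTPase, and its copy were among the most abundant of these messages in the populations with no or the dimmest reporter signal, and nearly gone from the brighter ones. The sum of Gvin1 and Gm4070 read 14068, 11034 and 19323 normalised counts in the 3 neg libraries and 11843, 15148 and 12770 in the sub libraries. It read 86.1, 55.2 and 46.8 in the low libraries and 0, 185.0 and 253.2 in the high libraries. The neg and sub ranges overlapped, the low and high ranges overlapped, and every low and high library lay below every neg and sub library.

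The mean of the sum was 14808 ± 4194 (SD, n = 3) in neg and 13254 ± 1705 in sub, but 62.7 ± 20.7 in low and 146.0 ± 131 in high. The sub mean was 0.895 times the neg mean, whereas the low mean was 236.1-fold below neg and 211.3-fold below sub. These ratios include the step by which the gene was chosen and carry no test. High against neg did not enter the choice, and there the sum fell by 8.64 ± 1.44 (SE) on the log2 scale (limma adjusted p = 0.000967), lower in 3 of 3 high libraries than in any neg library. The ratio of the neg mean to the high mean was 101.4, and 67.6 without the high library that read 0. The log2 fold change was -6.05 without that library, -9.82 without high 2 and -10.05 without high 3. The fall passed in 23 of 24 other settings, with adjusted p from 4.32e-08 to 0.144. The main fit takes its spread from all 12 libraries, among them the sub and low values that entered the choice. A fit to the neg and high libraries alone, which leaves those out, gave the one that missed (SE 2.29, limma adjusted p = 0.144). The call is therefore not free of the choice.

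How the sum divides between its genes varied from library to library. Gvin1 held 15.7%, 100% and 14.7% of the sum in the neg libraries and 32.3%, 100% and 79.8% in the sub libraries. In the low libraries and in the pair of high libraries with reads, Gvin1 itself was listed at 0 and every read was given to Gm4070. In neg 2 and sub 2 it was Gm4070 that was listed at 0, beside 11034 and 15148 normalised counts of Gvin1. The share of Gvin1 in neg 2 and sub 2 thus lay at the opposite end from the low libraries, while the sums of the other neg and sub libraries lay between 11843 and 19323. With 3 differing bases in the aligned transcripts, the row of either gene alone can hold reads of the other, and only the sum is read here. The next closest gene, Gm8979, is 96.15% identical over 7299 bases, and read 746.9, 204.2 and 112 in neg, 0, 2.29 and 229.4 in sub, and 0 in all low and high libraries.

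**Figure D1:**
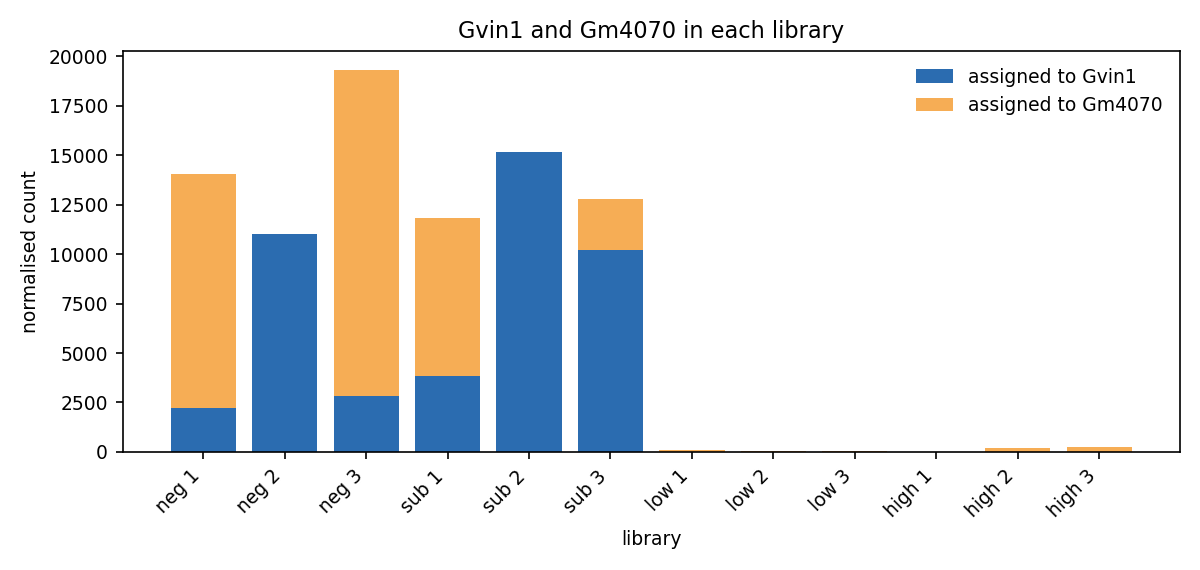
Normalised counts assigned to Gvin1 (blue) and to Gm4070 (orange) in each of the 12 libraries, stacked so that the bar height is their sum. The neg and sub bars reach 11034 to 19323 with very different divisions, and the low and high bars do not exceed 253.2.

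Iigp1, an effector immunity-related GTPase that loads onto parasite vacuoles, followed the same order with less depth of fall. It read 14549, 12834 and 14980 normalised counts in neg, 8363, 9110 and 11713 in sub, 532.9, 431.6 and 1173 in low, and 440.4, 1813 and 1044 in high. Every neg library exceeded every sub library, every sub library exceeded every low and high library, and the low and high ranges overlapped.

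Against neg, Iigp1 fell by 4.44 ± 0.51 (SE) on the log2 scale in low (limma adjusted p = 1.46e-05) and fell by 3.90 ± 0.51 in high (adjusted p = 6.74e-05). The means were 14121 ± 1135 (SD, n = 3) in neg, 712.4 ± 401.9 in low and 1099 ± 688 in high, so that neg was 19.8-fold above low and 12.8-fold above high. Both falls passed in all 25 other settings, with adjusted p up to 0.0278 for low and 0.0479 for high. Against sub, where the mean was 9729 ± 1759, Iigp1 in high fell by 3.35 ± 0.51 (adjusted p = 0.00215). That call was lost in a fit of only the sub and high libraries (0.174) and without the variance trend (0.166). The step from neg to sub did not pass although the libraries did not overlap, as for 4.99% of all rows in that direction (log2 fold change -0.55 ± 0.51, adjusted p = 0.741). The difference between high and low also did not pass, at 0.54 with a 95% interval of -0.53 to 1.61. The step from sub to low was -3.90, given without a test.

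Igtp, also called Irgm3, is a regulatory GTPase that sits on the cell's own membranes and keeps effector GTPases such as Iigp1 inactive. It did not follow Gvin1. It read 311.6, 676.3 and 2065 normalised counts in neg and 259.0, 1511 and 1041 in low, ranges that overlapped. Its sub libraries read 0, 601.1 and 0, and its high libraries 0, 2.02 and 0, the last made of 2 reads in all.

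The neg mean of Igtp, 1018 ± 925 (SD, n = 3), was 1510 times the high mean, with a 95% counting interval of 418 to 12470 that rests on those 2 reads. Igtp was lower in high than in neg in 3 of 3 libraries and passed narrowly (log2 fold change -9.04 ± 2.55, limma adjusted p = 0.0473), a size that depends on the pseudocount. The call held in 12 of 25 other settings, and leaving out any neg, low or high library ended it (0.0756 to 0.163). The fold change was -8.31 without neg 3 and -9.68 without neg 1. The annotation gives Igtp 162 of its 2022 exon bases in common with Irgm2, a related gene on the same strand, and reads there can be given to either gene. Irgm2 read 356.5, 1247 and 285.9 in neg, 1041, 172.9 and 2015 in sub, 51.9, 149.5 and 0 in low, and 877.4, 412.3 and 410.8 in high. Summed with Irgm2, a setting added after the data were seen, Igtp gave 668.1, 1924 and 2351 in neg against 877.4, 414.4 and 410.8 in high, and the difference no longer passed (-1.44, adjusted p = 0.468). In high nearly all of that sum is Irgm2, so the lost call does not show how reads of the shared bases were divided. That division was not tested, and the fall of Igtp in high is a statement about the reads given to its row.

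In sub against neg Igtp missed the threshold (adjusted p = 0.374), and it passed when sub 2, the library at 601.1, was left out (0.0316). For high against low, where the high libraries lay below all low ones as for 3.28% of all rows, limma gave -9.00 with an adjusted p of 0.794 and DESeq2 on the recovered reads gave 2.00e-04. Low stood 1390 times above high, with a counting interval of 385 to 11480. Summed with Irgm2, which makes up nearly all of that sum in high, the gap was not seen. The sum read 311.0, 1660 and 1041 in low, a range that overlapped that of high, and gave -0.62 in high against low. In sub against neg the same sum gave -0.30, and neither passed (limma adjusted p = 1).

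Irgm1, the other regulatory member, needed for resistance to mycobacteria and for normal autophagy, was detected in all 12 libraries. It read 719.2, 1990 and 364.1 normalised counts in neg, 329.4, 1168 and 1230 in sub, 198.2, 260.8 and 691.2 in low, and 164.4, 1693 and 277.7 in high. All 4 ranges overlapped. Its fold change was -1.29 in low and -0.91 in high against neg, with SE 1.18 and limma adjusted p of 0.636 and 0.751. The 95% interval in low, -3.75 to 1.18, takes in both a fall of several-fold and a rise.

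Ifi47, also called Irgd, was the scarcest member in neg. It read 18.0, 128.4 and 0 normalised counts in neg, 0, 862.1 and 310.2 in sub, 0 in all 3 low libraries, and 0, 105.1 and 448.4 in high. At least 1 library of each population had no read of it. A count of 0 in the low libraries allows up to 2.23 to 2.55 normalised counts. No comparison of Ifi47 passed in limma, and DESeq2 on the recovered reads called it higher in high than in low (adjusted p = 0.0338). Ifi47 shares 111 exon bases with Olfr56, an odorant receptor gene annotated across it on the same strand. Olfr56 read 60.8, 270.3 and 0 in neg, 531.4, 0 and 687.2 in sub, 1.48, 0.85 and 200.5 in low and 0, 391.1 and 0.82 in high, so that sub 1, with no read given to Ifi47, held 531.4 of Olfr56. Summed with Olfr56, a setting added after the data were seen, Ifi47 gave 78.8, 398.7 and 0 in neg and 531.4, 862.1 and 997.5 in sub, which did not overlap. In that setting its log2 fold change in sub against neg was 4.60 (limma adjusted p = 0.689), where Ifi47 alone gave 2.26, and in high against low it was 2.64 (adjusted p = 1), where Ifi47 alone gave 5.18.

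The guanylate-binding proteins are built of a large GTPase domain and a helical tail. Gbp3 was the steadiest of the 3 in sub. It read 1655, 89.3 and 961.0 normalised counts in neg, 2176, 2103 and 2457 in sub, 14.1, 264.2 and 0 in low, and 0, 218.3 and 590.5 in high. The sub libraries stood above all others, at a mean of 2245 ± 187 (SD, n = 3), and the remaining ranges overlapped.

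Gbp3 was the only member with every sub library above every neg library, a pattern that 4.69% of all rows had, but the difference of 2.10 ± 2.34 (SE) did not pass (limma adjusted p = 0.777). In low against neg it gave -5.04 and in high against sub -5.47, with unadjusted p of 0.0445 and 0.0308 and adjusted p of 0.298 and 0.414, neither of which passed.

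Gbp2, which is anchored to membranes by a lipid and is recruited to vacuoles of Toxoplasma, read 519.6, 13.5 and 1162 normalised counts in neg, 0, 1546 and 251.4 in sub, 14.8, 0 and 881.1 in low, and 0, 0 and 49.8 in high. Gbp7, known for work on oxidative defence against bacteria, read 2104, 716.7 and 305.2 in neg, 623.5, 1204 and 0 in sub, 54.2, 0 and 669.0 in low, and 227.6, 451.8 and 276.9 in high. For Gbp2 all ranges overlapped, and for Gbp7 also. Neither passed in any comparison, and in high against neg Gbp2 gave -5.80 (adjusted p = 0.390) and Gbp7 -1.34 (0.867).

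**Figure D2:**
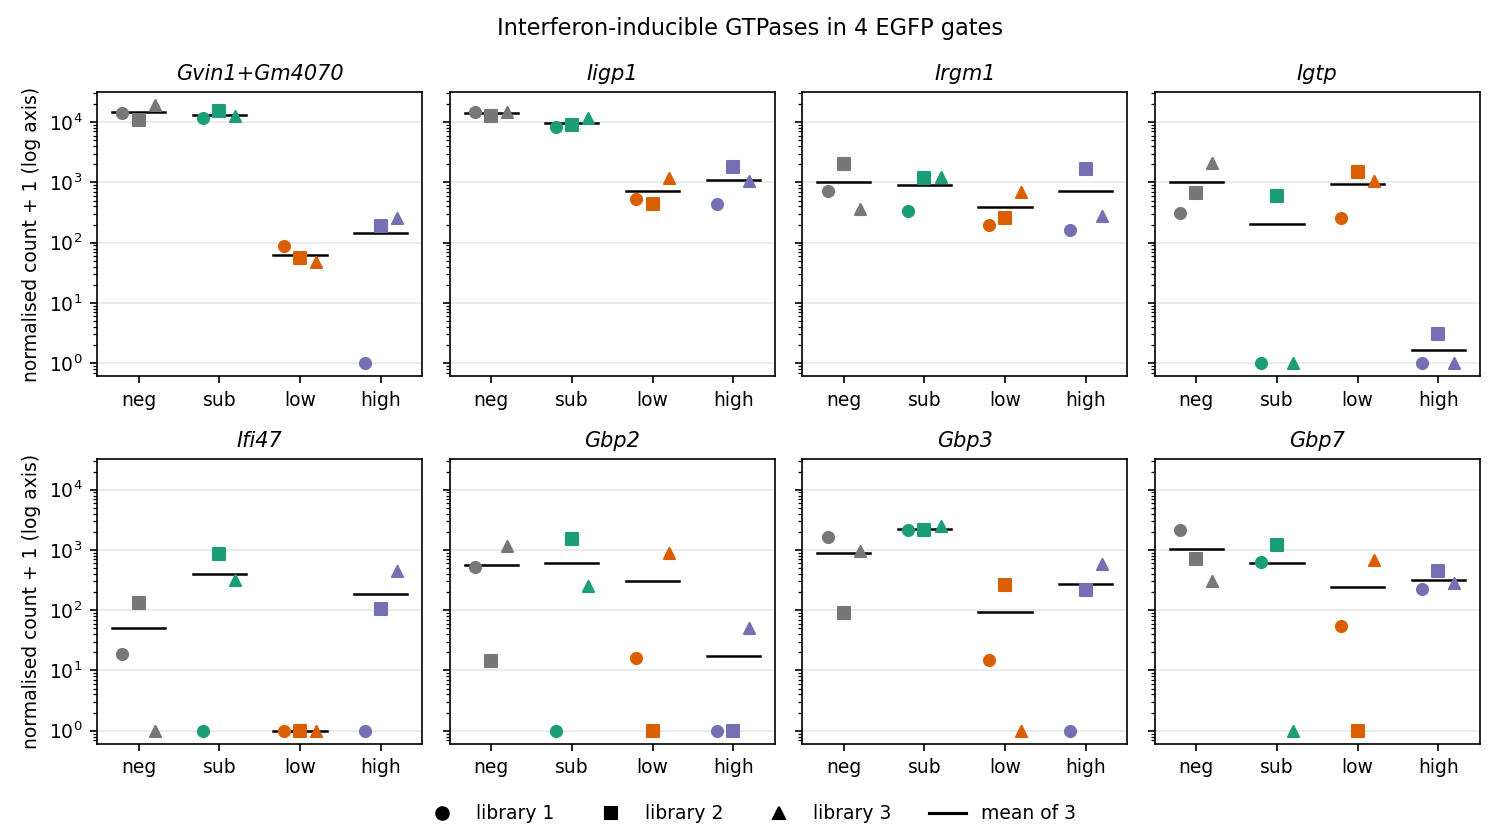
Normalised counts of the 8 rows (one panel each, log axis after adding 1) in the neg, sub, low and high populations. Each point is 1 library, the marker shape gives the library number and the bar is the mean of 3. The sum of Gvin1 and Gm4070 and Iigp1 step down after sub in every library, and in the other panels most of the ranges overlap.

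The spread within populations sets how far these genes can be told apart. Of the 96 values of the 8 rows, 19 were 0, of which 1 fell in neg and 5 in sub, 6 in low and 7 in high. The members' coefficient of variation had a median of 88.7% in neg and 77.1% in sub, then 70.0% in low and 115.2% in high. Over the 7858 genes with a mean between the lowest and highest member mean it was 86.7%, 87.7%, 78.9% and 64.7%. Ifi47 in low, at 0 throughout, has no such value and was left out. In neg the members ran from 8.04% for Iigp1 to 142.5% for Ifi47. The genes were not matched to each member's level, so the medians do not tell how variable a member is for its level.

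Per kilobase of the longest annotated transcript the order of levels can be compared between genes, and it depends on that choice of length. The length used was 3121 bases for Iigp1, whose annotated exons together cover 5823, and 9006 for the sum. No other length was tried. In neg, Iigp1 led with 4524 ± 364 normalised counts per kb (SD, n = 3), followed by the sum with 1644 ± 466 and Igtp with 503 ± 458. The highest Igtp library, at 1021, stayed below the lowest of the sum, at 1225, and the sum stayed below Iigp1. Below Igtp the ranges of Gbp3, Irgm1, Gbp2 and Gbp7 overlapped with it and with each other, and Ifi47 was lowest on average with 27.5.

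In sub, by the same lengths, the order began with Iigp1 at 3117 ± 564 per kb, the sum at 1472 ± 189 and Gbp3 at 837 ± 69.6. None of these overlapped by those lengths, and the other 5 overlapped with each other. In low, Igtp (463 ± 313) and Iigp1 (228 ± 129) led with overlapping ranges, and the sum had dropped from the second to the seventh place with 6.96. In high, Iigp1 (352 ± 220) and Irgm1 (186 ± 222) led with overlapping ranges, the sum stood at 16.2 and Igtp was last with 0.333.

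Counted over the set, falls outnumbered rises wherever a bright population was set against neg or sub, but few passed. In high against neg 3 of 8 rows passed, all lower (the sum, Iigp1 and Igtp). Among all 16127 rows 4.7% passed and 2.25% passed as lower. The spread in that fit includes the sub and low values that entered the choice. Fitted on the neg and high libraries alone, 1 of 8 passed (Iigp1), beside 340 of all rows. In that fit the limma adjusted p was 0.144 for the sum and 0.0578 for Igtp. In low against neg 1 of the 7 rows with a test passed, Iigp1, against 4.69% of all rows and 2.15% as lower. In high against sub 1 of 7 passed, again Iigp1, against 0.986% of all rows and 0.868% as lower. Since the members were chosen with the fall of Gvin1 known, these counts are a description of the 8 rows.

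In sub against neg 0 of 7 passed in limma, with 1 (Igtp) at an unadjusted p under 0.05 and 0 by edgeR and by DESeq2, where 1.19%, 1.28% and 10.1% of all rows passed. In high against low 0 of 7 passed in limma, with 1 (Igtp) at an unadjusted p under 0.05, 0 by edgeR and 2 by DESeq2. Among all rows 0 passed there in limma, with 684 at an unadjusted p under 0.05, 34 by edgeR and 684 by DESeq2, the shares called being 0%, 0.211% and 4.24%.

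The median log2 fold change over the 8 rows was -0.34 in sub against neg, -4.10 in low against neg and -3.64 in high against neg. Over all rows tested it was 0, 0 and 0.13. With Ifi47, which had no read in low, set at 3 reads there, the low median was -3.77. The high median was the same with Igtp so treated. Igtp had 2 reads in high, so 3 reads is no upper limit for it. All 8 rows had a lower value in low than in neg, 7 of 8 in high than in neg and 6 of 8 in sub than in neg, as means of log2(normalised count + 1), and most of these differences did not pass. Gbp2 is counted as lower in sub but had a higher mean normalised count there (599.0 against 565.0). Igtp is counted as lower in low at a log2 fold change of -0.03, which is no fall to speak of. Irgm1 at -0.05 and the sum at -0.13 are counted as lower in sub. The sign of each of these 3 values turned with 1 library left out. Rows lower without overlap numbered 2 in low against neg, 3 in high against neg and 3 in high against sub. Among all rows 8.52%, 8.61% and 5.91% did the same. The sum is counted in each, and its sub and low values entered the choice, so these counts are a description. The comparisons against neg share the neg libraries. From sub to low 7 of 8 rows had a lower value and Igtp a higher one, with a median of -2.75. With 1 library left out, Gbp2 ran from -4.70 to 0.69 and Gbp7 from -4.70 to 1.08 from sub to low, above 0 without sub 2 and without low 2. In that step 3 rows (the sum, Iigp1 and Gbp3) were lower without overlap, where 5.99% of all rows were. The sum is among them through the choice of the set, so the share is no test of the count. Of all rows 0.744% passed in that step.

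**Figure D3:**
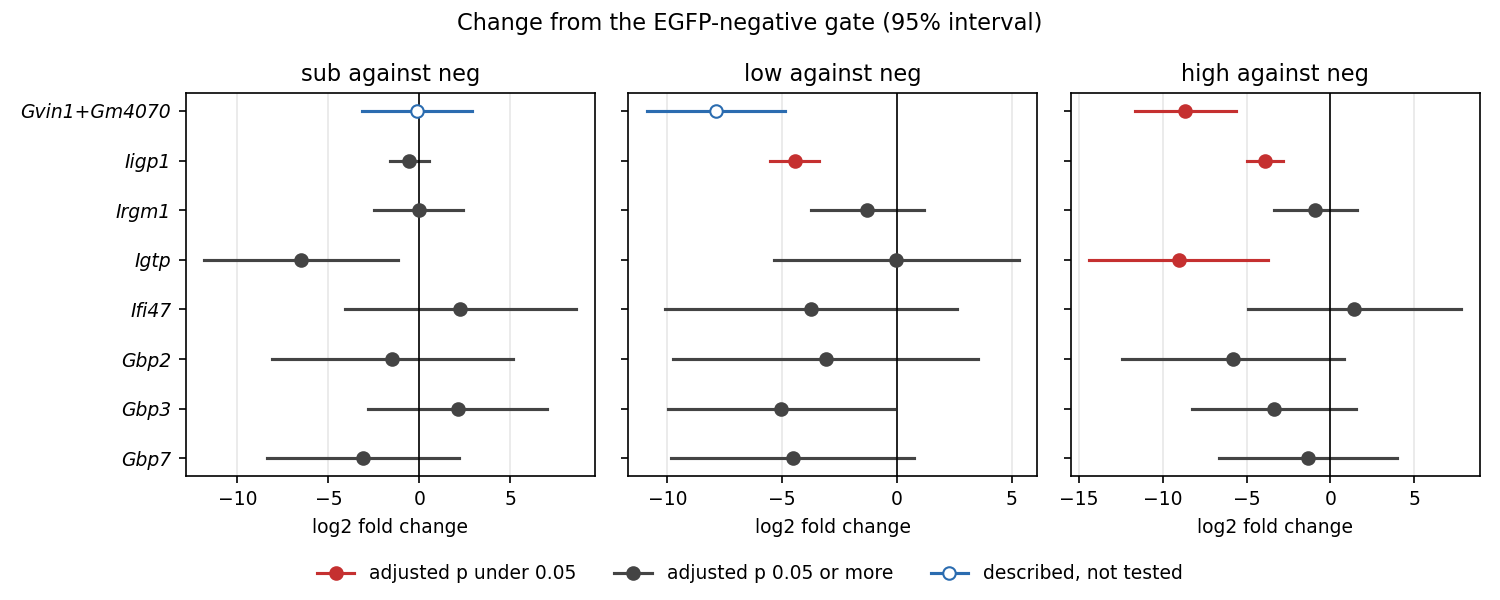
Log2 fold change against neg, on the log2(normalised count + 1) scale, of the 8 rows in sub, low and high with 95% intervals from limma. Red marks an adjusted p under 0.05 and open blue marks values given without a test. The open blue intervals, of the sum in sub and low, rest on values that entered the choice. Whether they reach 0 is therefore no test. Intervals of Iigp1 in low and high, and of the sum and Igtp in high, lie below 0 and are red.

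Related GTPases were read from a list of 24 symbols, of which 23 were in the table, 20 had a read and 18 were tested. In low against neg 4 of 18 passed, all lower, and in high against neg 4 of 18 passed, all lower, where 2.15% and 2.25% of all rows passed as lower. By edgeR 3 passed in low and 2 in high, beside 3.73% and 3.85% of all rows. The medians were -3.14 and -2.10, and -3.29 and -2.10 with genes at the floor set at 3 reads. Tgtp2, a T-cell GTPase of the immunity-related family, read 5243, 4557 and 8795 normalised counts in neg and 460.1, 663.6 and 732.3 in low, and passed in low (log2 fold change -3.29 ± 0.60, limma adjusted p = 0.00235) and in high (-2.12 ± 0.60, 0.0466), the latter lost by edgeR (adjusted p = 0.0809). No neg library of Tgtp2 overlapped a low library. Its transcript is 99.75% identical to that of Tgtp1, and reads of the pair cannot be fully told apart. Tgtp1 read 290.2, 138.2 and 746.6 in neg and 287.3, 717.6 and 1016 in high, higher on average in high but not past the threshold. Summed with Tgtp1, a setting added after the data were seen, Tgtp2 passed in low (-2.95 ± 0.50, limma adjusted p = 0.00126) and no longer in high (-1.68 ± 0.50, 0.0647). 9930111J21Rik2, another gene of that family, read 12240, 9686 and 13950 in neg, 250.1, 1.70 and 1677 in low and 813.4, 1558 and 2349 in high, and passed in low only (-6.82 ± 1.41, 0.00675). It shares a stretch of 550 bases without a difference with 9930111J21Rik1.

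Gbp5, a guanylate-binding protein linked to inflammasome activity, read 564.5, 761.9 and 64.7 normalised counts in neg, 462.1, 877 and 676.3 in sub, and 0 in all low and high libraries. It passed in low and in high against neg (limma adjusted p = 0.0431 for both), and edgeR called neither (0.0653 and 0.0674). Gm8995, listed with the large inducible GTPases, read 364.8, 1741 and 1148 in neg and 8.98 to 103 in sub, and was also at 0 in all 6 low and high libraries (0.0157 in low and 0.0154 in high, the latter 0.0507 by edgeR). Mx2, a dynamin-like antiviral GTPase, read 1303, 1307 and 1898 in neg, 758.3, 1548 and 1440 in sub, and 0, 0 and 346.8 in low. It was at 0 in all 3 high libraries and passed in high against neg (0.0126) and against sub (0.0447). By contrast Gbp6, the third most abundant of the list, read 456.2 to 3005 in neg and 877.4 to 2051 in high and passed in neither low (-0.89) nor high (-0.29).

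The 6 interferon ligands listed, among them Ifng, Ifnb1 and Ifna4, had no read in any library, which allows up to 2.07 to 3.67 normalised counts each. Of 10 receptor, Janus kinase and STAT genes 1 passed in low and in high against neg, where 2.15% and 2.25% of all rows passed as lower: Jak1, a kinase shared by the interferon receptors, fell by 1.70 ± 0.33 (limma adjusted p = 0.00445) and 1.53 ± 0.33 (0.00941). The call of Jak1 in high was lost by edgeR (adjusted p = 0.065). Jak1 read 10630, 10020 and 8728 normalised counts in neg, 2582, 3880 and 2678 in low and 3054, 2599 and 4838 in high, without overlap between neg and either. The list's medians were -0.70 and -0.59. With 1 of 10 genes called in each, the count of this list gives no more than Jak1 itself. Ifngr1, a chain of the interferon-gamma receptor, did not pass (0.06 in low, 0.75 in high), nor did Jak2 (-0.35 and -0.28).

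Among 7 tested IRF and coactivator genes 2 passed in low and 1 in high, all lower (2.15% and 2.25% of all rows), with medians of -1.71 and -0.81. Irf1, a transcription factor that acts on this family, read 6468, 8062 and 9454 normalised counts in neg, 1156, 1871 and 3131 in low and 2655, 5180 and 7327 in high. It fell in low by 2.06 ± 0.41 (limma adjusted p = 0.00519), and in high its range overlapped neg and it gave -0.76 (0.379). Irf8, best known from myeloid cells, read 1170, 1298 and 651.9 in neg, 0 in all low libraries and 20.8, 0 and 0 in high, and passed in both (0.0153 and 0.0396), in high not by edgeR (0.233). Irf9 and Irf2 did not pass in either.

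Of 5 feedback inhibitors 0 passed in limma in sub, low or high against neg, where 0, 3 and 2 had an unadjusted p under 0.05, edgeR called 0 in each, and DESeq2 called 1, 0 and 0. Of all rows limma called 1.19%, 4.69% and 4.7%, edgeR 1.28%, 3.73% and 3.85%, and DESeq2 10.1%, 14.2% and 13.8%, so with 5 genes these counts are no result about the list. Socs3, which blocks Janus kinases, had a log2 fold change of -2.35 in low (limma adjusted p = 0.0750) and -0.87 in high (0.597). Pias1 and Ptpn2, the other abundant genes of the list, gave 0.24 and 6.95 in low and did not pass (0.995 and 0.151).

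Of 21 other interferon-stimulated genes 4 passed in low and 1 in high, all lower. The share of all rows that passed was 4.69% in low and 4.7% in high, 2.15% and 2.25% as lower, so that 1 of 21 in high is near the background. The medians were -2.36 and -1.42, and -2.29 and -1.42 with genes at the floor set at 3 reads. Rnf213, a large ubiquitin ligase, fell by 1.65 ± 0.28 in low (limma adjusted p = 0.00133) and 1.74 ± 0.28 in high (7.27e-04). Parp14 fell by 3.35 ± 0.55 in low (7.96e-04) and Ifit1, which binds viral RNA, had a log2 fold change of -3.58 ± 0.84 there (0.0159). Rsad2, the antiviral enzyme viperin, read 742, 1255 and 1183 normalised counts in neg and 0 in all 3 low libraries (0.0172), and 0, 139.5 and 461.5 in high (0.338).

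Over the 5 lists with tested genes, 61 genes in all, 11 passed in low against neg and 7 in high against neg, all of them lower, beside 2.15% and 2.25% of all rows. The lists were chosen with earlier results of these data known, so their counts, here and above, are a description. Tgtp2, among the calls in high, was lost there when summed with Tgtp1 (limma adjusted p = 0.0647). On the recovered reads edgeR called 11 and 4 of the 61, where it called 3.73% and 3.85% of all rows in either direction. DESeq2 called 19 and 11, where it called 14.2% and 13.8% of all rows, so that its count in high is near its background. In sub against neg 0 of 61 passed in limma, with 4 at an unadjusted p under 0.05, 0 by edgeR and 3 by DESeq2, beside 1.19% of all rows in limma, 1.28% by edgeR and 10.1% by DESeq2. In high against sub 2 passed, where 0.868% of all rows passed as lower, both lower: Mx2 and Rnf213, the latter with a log2 fold change of -1.76 ± 0.28 (limma adjusted p = 0.00326).

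The populations also differ in the cell types whose messages they hold, and in bulk libraries fewer cells of a type and less RNA per cell cannot be told apart. The summed level of 10 endothelial markers ranged from 99286 to 131705 normalised counts in neg, 29789 to 43672 in sub, 745.4 to 1812 in low and 685.2 to 913.8 in high. Emcn and Lyve1 were at 0 in all low libraries, and Emcn and Eng in all high libraries. In low 10 of 10 and in high 9 of 10 of these markers passed as lower than in neg, where 2.15% and 2.25% of all rows did. The summed level of 10 stellate and mesenchymal markers ranged from 17877 to 32806 in neg, 25405 to 33109 in sub, 634.7 to 2516 in low and 490.0 to 1937 in high, where Lrat was at 0 in low and Pdgfrb, Lrat, Col3a1 and Acta2 in high. In each of low and high 6 of 10 passed as lower than in neg, beside the same 2.15% and 2.25% of all rows.

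From neg to sub the means of the lists changed by factors of 0.312 for endothelial and 1.17 for stellate markers, beside 0.895 for the sum of Gvin1 and Gm4070 and 0.689 for Iigp1. From neg to low the endothelial mean fell 82.3-fold and the stellate mean 15.5-fold, beside 236.1-fold for the sum and 19.8-fold for Iigp1. Rgs5, a pericyte gene, and Reln made up 844.6 and 465.6 of the stellate mean of 1578 in low, so the fold of the stellate sum rests on these genes. Counted gene by gene, the median log2 fold change in low was -7.86 for the stellate and -9.40 for the endothelial list, and -7.49 and -9.37 with genes at the floor set at 3 reads. Summed biliary markers moved the other way, from 23.2 to 413.9 in neg to 23832 to 43182 in sub, 82959 to 103806 in low and 75172 to 78813 in high, and 8 of 10 passed as higher in low and 7 of 10 in high, where 2.55% and 2.45% of all rows did. Sox9, whose reporter set the gates, is on this list, so its rise was fixed by the sort. Of the other 9 genes 7 passed in low and 6 in high, and their sum ranged from 23.2 to 413.2 in neg, 20126 to 36529 in sub, 74121 to 86665 in low and 63379 to 65315 in high. Summed hepatocyte markers ranged from 628.6 to 1159 in neg, 4739 to 7171 in sub, 11535 to 18409 in low and 13370 to 17494 in high. Alb made up most of the sum in low and high, at 8181 to 15360 in low, and read 301.2, 0 and 183.5 in neg, less than Apoa1. Of the 10 hepatocyte markers 3 passed as higher in low and 4 in high, beside the same 2.55% and 2.45% of all rows, while Apoa1, Cyp2e1 and Ass1 had lower values there than in neg and did not pass, and Serpina1a was at 0 in all neg, low and high libraries. The part of these cell types in the level of the GTPases was not tested.

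Summed over 10 genes, Kupffer cell and macrophage markers ranged from 0 to 986.6 normalised counts in neg, 490.0 to 587.4 in sub, 814.0 to 1133 in low and 518.6 to 1348 in high. Of the 10, 7 were at 0 in all 3 neg libraries, 7 in all low and 6 in all high libraries. In neg Cd68 read 532.7, 0 and 62.8, C1qb 431.1, 0 and 0 and Adgre1 22.8, 0 and 0. Csf1r, the receptor for macrophage colony-stimulating factor, was the 1 gene called of the 4 tested: it read 0 in all neg libraries, 670.2 to 1133 in low, most of the sum there, and 518.6 to 945.8 in high, and passed as higher in both (limma adjusted p = 0.0162 and 0.0189), where 2.55% and 2.45% of all rows did. Cd68 had lower values than in neg, at -2.95 in low and -2.38 in high, and C1qb, at 0 in all low and high libraries, gave -2.92 in both, and neither gene passed. Csf1r was picked for mention after its values were seen. Lymphocyte markers ranged from 20.3 to 1142 in neg, 21.4 to 424.9 in sub, 25.5 to 128.2 in low and 76.8 to 593.3 in high, and Cd3e, Nkg7 and Klrb1c were at 0 in all 12 libraries. The part of these cells in the level of the GTPases was not tested.

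**Figure D4:**
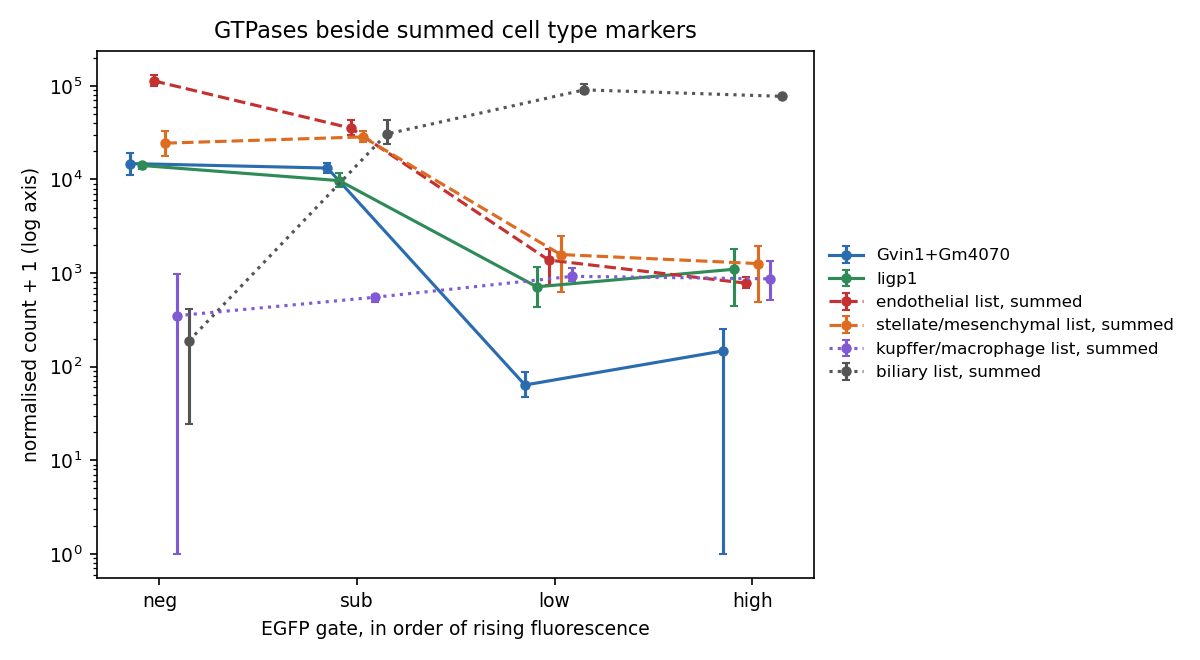
Normalised counts plus 1 (log axis) of the sum of Gvin1 and Gm4070 and of Iigp1 beside the summed endothelial, stellate, Kupffer and biliary marker lists, by population. Points are means of 3 libraries and bars run from the lowest to the highest library. Endothelial and stellate lists and the GTPases are lower in low and high than in neg, and the biliary list, which includes Sox9, is higher.

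Likeness to the sum was described by Pearson's r of log2(normalised count + 1) over the 12 libraries, which share their populations, so that genes of the same cells correlate by design. Within the set r was 0.938 for Iigp1, 0.816 for Gbp3, 0.539 for Irgm1, 0.501 for Gbp2, 0.419 for Ifi47, 0.195 for Igtp and 0.177 for Gbp7. Among 9605 other genes with a mean of at least 100, the most alike were Pkm (0.964), Crim1 (0.931), Gucy1a1 (0.920), Cdh5 (0.919) and Podn (0.917). Cdh5, the endothelial cadherin, ranged from 8528 to 12120 normalised counts in neg, 3735 to 5189 in sub, 0 to 8.16 in low and 0 to 50.5 in high. Pkm, the muscle-type pyruvate kinase, ranged from 1277 to 1837 in neg, 1447 to 2643 in sub, 212.9 to 297.6 in low and 37.2 to 949.9 in high. Only Cdh5 of these genes had a lower mean in sub (4320) than in neg (9833). The means in neg and sub were 1514 and 2061 for Pkm and 4239 and 5316 for Crim1. They were 672.3 and 1077 for Gucy1a1 and 784.9 and 1149 for Podn. These means are a description.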

How the data were processed

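The authors deposited a signal per gene and library, the normalised count, for 54227 symbols in 12 columns, each matched to 1 sample by its description. The submitters' processing notes name Salmon, DESeq2 1.26.0 and mm10 without their roles; the aligner, the annotation and the use of strand are not given in the sources used here. The signal deposited by the authors held whole multiples of 1 step per column in 100% of values above 0, and these reads entered the count tests.

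The members and lists were chosen with earlier results of these data known. Gvin1 and Gm4070 were summed, rows with a mean of at least 10 were kept (99.9% of the summed values), and limma 3.58.1 in R 4.3.3 (lmFit, eBayes with trend, two-sided) was fitted to log2(normalised count + 1) of the 12 libraries, with no term beside population, Benjamini-Hochberg adjusted at 0.05. The other settings were a pseudocount of 0.5 or 5, a minimum mean of 100 or none, equal totals, a replicate block, 2 populations only, no variance trend, Gvin1 and Gm4070 separate, each library left out, edgeR 4.0.16 (quasi-likelihood) and DESeq2 1.42.0, and, added after the data were seen, Igtp summed with Irgm2, Ifi47 with Olfr56 and Tgtp2 with Tgtp1. The limma step was tested on simulated data with less spread than these libraries show, so that test does not tell which changes could be detected here.

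Named genes were all members, from each list the 3 of highest mean and those past the threshold against neg (at most 6), the 5 genes most like the sum, and Sox9. Close copies, overlapping genes and cell type markers named in the text fall outside this rule and were chosen after their values were seen. Coordinates and transcripts are from GENCODE M21 (GRCm38), which holds 52258 of the symbols (96.4%), and identities from blastn 2.17.0. Promoters are from RefSeq, GRCm38.p6.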

Additional observations from a re-analysis of the deposited data

How the results depend on the processing

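Calls of the sum of Gvin1 and Gm4070 and of Iigp1 against neg kept their direction in every setting tried. The sum had a test in high against neg only. That call was lost in a fit of the neg and high libraries alone (limma adjusted p = 0.144). Over all rows, a fit of only 2 populations called 0 genes in sub against neg, 203 in low against neg, 340 in high against neg, 7 in high against sub and 1 in low against sub, where limma on all libraries called 192, 757, 758, 159 and 120. DESeq2 called 1632, 2294, 2218, 1493 and 1588, and 684 in high against low. There limma called 0, and 1 was called without the filter, 1 with the replicate block, 22 without the variance trend and 34 by edgeR. In low against sub 194 were called without the trend and 183 by edgeR. Leaving out 1 library gave 150 to 317, 464 to 737, 467 to 797, 73 to 245, 40 to 169 and, in high against low, 0 to 35. Counts moved by over 1.5 times without neg 1 (317 in sub against neg), low 2 and low 3 (485 and 464 in low against neg), high 1 and high 3 (467 and 485 in high against neg), sub 2 (73 in high against sub, 40 in low against sub) and low 1 (245 in high against sub), and in high against low without sub 3, low 1, low 3 or any high library.

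Of the members, high against neg called 3, and 1 with only 2 populations and 2 to 3 with 1 library left out. High against sub called 1, 0 with only 2 populations and without the trend, and 2 by DESeq2. High against low called 0 and 2 by DESeq2, and sub against neg 0 to 1 with 1 library left out, the 1 coming without sub 2.

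The directions that turned belonged to values that did not pass in limma on all libraries. Of these, Igtp in high against sub passed by DESeq2 (log2 fold change -8.27, adjusted p = 0.00465). With 1 library left out the log2 fold change ran from -3.70 to 1.60 for Gbp2, -4.95 to 0.17 for Gbp7 and -0.62 to 0.61 for Irgm1 in sub against neg, and from -0.67 to 0.73 for Igtp in low against neg. It ran from -0.45 to 4.02 for Ifi47 in high against neg, from -0.32 to 4.50 for Gbp3 and -0.62 to 1.06 for Irgm1 in high against low, and from -1.50 to 3.62 for Gbp7, -4.09 to 0.53 for Igtp and -3.84 to 1.76 for Ifi47 in high against sub. The sum of Gvin1 and Gm4070, given without a test, ran from -0.32 to 0.08 in sub against neg, above 0 without neg 3, and from -2.18 to 1.82 in high against low, above 0 without high 1. By edgeR and DESeq2 Gbp2 gave 0.07 and 0.087 in sub against neg, and Gbp7 gave -0.85 and -0.94 in high against sub. The cause of these changes was not tested.

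The labels give replicate numbers 1 to 3 in every population, and the descriptions a code shared by the libraries of a number, without saying what it stands for. Deviations of same-numbered libraries from their population means correlated at -0.016 to 0.027 over 18 pairs, against -0.045 to 0.024 for 36 pairs of different number. With the replicate block 180, 720, 715, 1, 129 and 83 genes were called in sub, low and high against neg, high against low, high against sub and low against sub, and 0, 1, 3, 0 and 1 members in the first 5 of these.

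Of the 8 rows, Igtp in high and Ifi47 in low were at or below 3 reads in every library, so the size of their changes is limited by depth.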
